A study of Mus musculus with 96 samples.

Results

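Hematopoietic cells (HC) of the infarcted mouse heart were compared with those of the unoperated heart. The 8 libraries are the 4 titled HC Day 3 and the 4 titled HC Day 0, out of 24 HC libraries and 96 in all, which also cover cardiomyocytes (CM), endothelial cells (EC) and fibroblasts (FB). Day 3 libraries came from young adult male C57Bl/6J mice 3 days after the left anterior descending coronary artery, which feeds the front wall of the left ventricle, had been tied for good. Day 0 libraries came from young adult male C57Bl/6J mice that had no operation, so the surgery itself differs between the groups as well as the infarct. In both groups hearts were digested, cells were captured with beads against CD45, the surface phosphatase carried by blood-derived cells, and total RNA was sequenced after depletion of rRNA. Each library was a pool of RNA from several mice, and the 4 replicates are called both biological and technical by the study, so the p-values rest on differences between pools that may in part be technical. The bead capture takes all CD45-positive cells together. In such bulk libraries, fewer cells of a type and less RNA per cell of that type cannot be told apart.

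The heart at rest holds mainly resident macrophages, with some lymphocytes, dendritic cells and mast cells. After an infarct, neutrophils enter first, and monocytes that carry the chemokine receptor CCR2 follow from blood, spleen and marrow. The monocytes become macrophages, which take up dying cells, digest them in lysosomes and secrete matrix and growth factors. Resident macrophages are known by the phosphatidylserine receptor TIMD4, the hyaluronan receptor LYVE1 and the folate receptor FOLR2.

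Day 3 libraries held 30011706 to 40395291 estimated reads, and Day 0 libraries 18518234 to 26161406. Reads of rRNA genes took 11.2% to 12.6% of the Day 3 and 18.7% to 24.9% of the Day 0 libraries. One library stood apart. Day 3 replicate 4 correlated with the other Day 3 libraries at 0.937 to 0.953 (Pearson's r across genes on log2 CPM, genes not being replicates), while those correlated with each other at 0.993 to 0.994. Small RNA classes were sparse in it, with snRNA genes at 702 CPM in replicate 4 against 7573 to 13953 CPM in the other Day 3 libraries. Of 9774 genes with at least 10 CPM in a Day 3 library, 883 stood at 2 times or more the mean of the other replicates and 769 at 0.5 times or less. Without it, 5519 genes were higher and 5094 lower at Day 3, against 4587 and 3831 with it. Counts of list members are therefore given with and without this library.

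**Figure D1:**
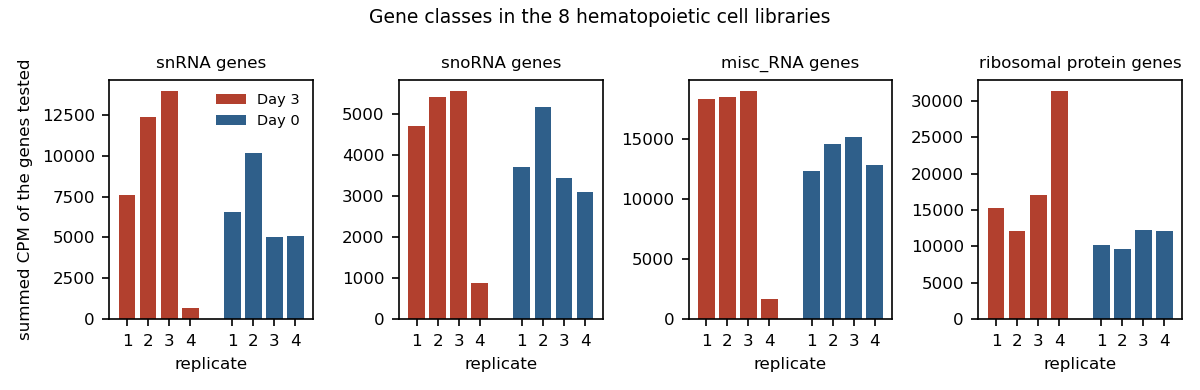
Summed CPM (vertical axis) of 3 small RNA gene classes and of ribosomal protein genes in the 4 Day 3 libraries (red, left) and the 4 Day 0 libraries (blue, right), by replicate number. Day 3 replicate 4 had 702 CPM of snRNA, 876 of snoRNA and 1635 of misc_RNA genes, the lowest of the 8 libraries in each, and 31291 CPM of ribosomal protein genes, the highest.

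The leukocyte identity of the libraries was checked with 4 genes that the study used to mark HC. Ptprc (chr1:138062861-138175708 in mm10), which encodes CD45, was at 848, 846, 827 and 803 CPM in the Day 3 libraries, against 728, 597, 654 and 616 CPM in the Day 0 libraries. It lay in a narrow range in all 8 and was higher at Day 3 by 0.36 ± 0.10 on the log2 scale (SE, edgeR adjusted p = 0.0145). This call was lost without Day 0 replicate 2 or 4 (edgeR adjusted p = 0.0513 to 0.0533) and when libraries were scaled to their total without rRNA (change 0.23, edgeR adjusted p = 0.172). The tetraspanin gene Cd53 (1.26 ± 0.09) and the integrin gene Itgax (2.13 ± 0.21), which encodes CD11c, rose as well. The integrin gene Itgal was at 58.7, 55.5, 63.3 and 25.7 CPM at Day 3, against 53.9, 34.0, 30.3 and 41.1 CPM at Day 0, with overlapping groups (log2 fold change 0.35 ± 0.29, edgeR adjusted p = 0.352), and without Day 3 replicate 4 its change was 0.55 (adjusted p = 0.0333).

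RNA of other heart cells was also present, and more of it at Day 0. All 18 abundant CM transcripts tested were lower at Day 3 (17 without Day 3 replicate 4), and their sum was 2451 to 3348 CPM at Day 3 and 16334 to 25992 CPM at Day 0. The cardiac myosin gene Myh6 was at 417, 452, 347 and 407 CPM at Day 3, against 2558, 4288, 3065 and 2787 CPM at Day 0, so that no Day 3 library reached a Day 0 library. All 16 endothelial and mural genes were lower too, with and without Day 3 replicate 4, and had sums of 263 to 313 CPM at Day 3 and 1108 to 1715 CPM at Day 0. Pecam1, an endothelial adhesion gene, changed by -1.73 ± 0.12, and Rgs5, a pericyte gene, by -3.16 ± 0.17. None of these markers was at 0 in either group. Their part in the falls described below was not tested, and levels in the other isolates are given for some of the genes that fell.

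Of 17548 genes tested, 4587 were higher at Day 3 and 3831 lower (edgeR adjusted p under 0.05), which is 26.1% and 21.8% of all genes. All 4 Day 3 libraries lay on one side of all 4 Day 0 libraries, with a call, for 23.9% of genes upward and 20.7% downward. The median log2 fold change over all genes was 0.05, and the list medians below are to be read against it. Lists with 0 members called in a direction by edgeR also had 0 with an unadjusted p under 0.05 and 0 called by DESeq2 in that direction. Scaled to the library total without rRNA, the median was -0.08, with 3644 genes higher and 4345 lower. The 12 highest called genes with at least 10 CPM were Arg1, Spp1, Gpnmb, Cxcl3, Saa3, F7, Acod1, Thbs1, Apoc2, Fabp5, Tnc and Timp1. They code for secreted or lysosomal proteins, chemokines, coagulation and lipid transport proteins and enzymes of myeloid cells, and their log2 fold changes ran from 5.12 to 9.71. The 12 lowest were Ces1d, Retnla, Lrtm1, Myoz2, Hfe2, Hrc, Myl2, Actc1, Fhl2, Rgs5, Rassf9 and Perm1, from -3.72 to -3.13. Most of these are genes of striated muscle or vessel walls, and Retnla, a secreted product of alternatively activated macrophages, is among them as well.

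**Figure D2:**
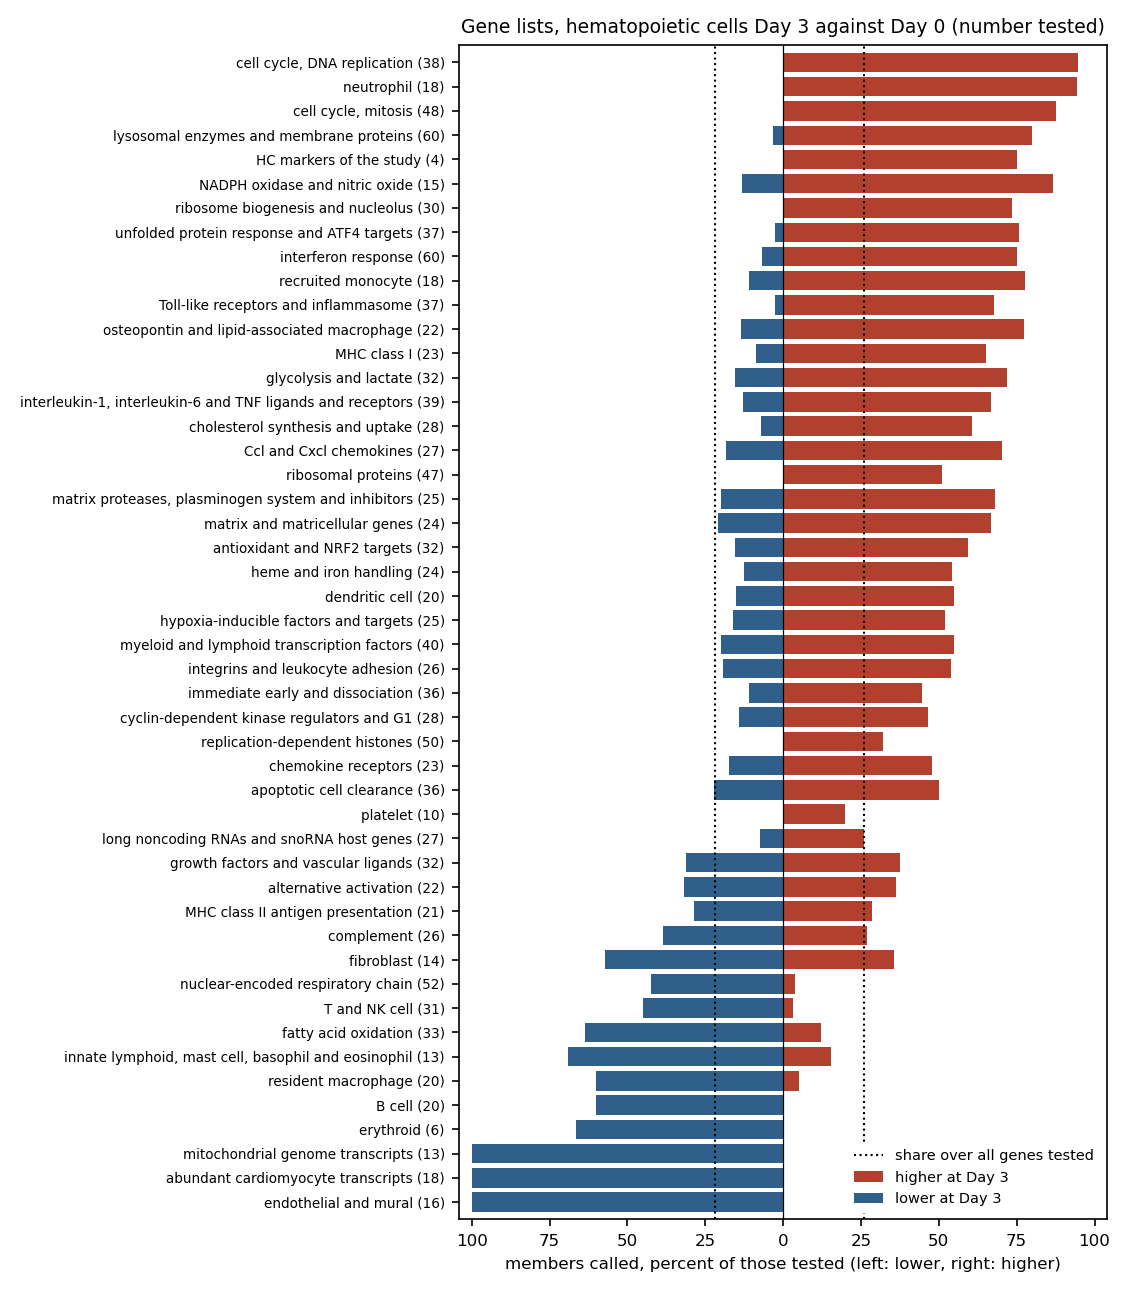
Share of the tested members of each gene list (vertical axis, number tested in brackets) that was higher (red, right) or lower (blue, left) at Day 3 than at Day 0, as a percentage (horizontal axis). Dotted lines mark the share over all genes, 26.1% higher and 21.8% lower, and the shares of neutrophil, DNA replication and mitosis genes lie far to the right of their line and those of CM and vessel genes far to the left of theirs.

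Most genes known from macrophages that carry osteopontin and handle lipid were higher at Day 3. Of the osteopontin and lipid-associated macrophage list, 17 of 22 were higher and 3 lower, with a median log2 fold change of 2.57 (17, 3 and 2.32 without Day 3 replicate 4). Spp1 (chr5:104435118-104441050), which encodes the secreted matrix protein osteopontin, was at 2965, 2842, 2773 and 4225 CPM in the Day 3 libraries, against 2.66, 4.11, 6.04 and 3.08 CPM in the Day 0 libraries. Every Day 3 library stood far above every Day 0 library, a log2 fold change of 9.66 ± 0.36 (edgeR adjusted p = 1.57e-06). Arg1 (chr10:24915221-24927484), the arginase that splits arginine into ornithine and urea, was at 683, 522, 593 and 1409 CPM in the Day 3 libraries, against 0.551, 1.34, 0.912 and 0.964 CPM in the Day 0 libraries. Its groups were as far apart (9.71 ± 0.49, edgeR adjusted p = 3.98e-06), and Day 3 replicate 4 was the highest library. Gpnmb (chr6:49036546-49070929), a glycoprotein of lysosomal and phagosomal membranes, was at 387, 289.8, 293 and 383 CPM at Day 3, against 1.20, 2.14, 2.96 and 2.22 CPM at Day 0. The fatty acid carrier gene Fabp5 was at 586, 437, 555 and 1764 CPM at Day 3, against 16.1, 22.5, 21.3 and 27.8 CPM at Day 0, where Day 3 replicate 4 held the highest value and the change without it was 4.56 instead of 5.25. Lgals3, which encodes galectin-3, averaged 716 ± 314 CPM at Day 3 and 38.7 ± 4.72 CPM at Day 0 (SD, n = 4 each).

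Lipid uptake genes that the resting heart expresses in vessels and muscle went the other way. The lipoprotein lipase gene Lpl (-1.24 ± 0.16), the fatty acid translocase gene Cd36 (-0.97 ± 0.14) and the carrier gene Fabp4 (-1.77 ± 0.31) were the members of that list that fell. At Day 0, Cd36 averaged 555 CPM in HC, against 1962 CPM in CM and 2061 CPM in EC (scaled over 32 libraries). Lpl averaged 759 CPM in HC, against 5709.6 CPM in CM and 849 CPM in EC. Fabp4 averaged 155 CPM in HC, against 187 CPM in CM and 1665 CPM in EC, so that each was higher in at least EC. The acyltransferase gene Soat1, which makes cholesterol esters for storage, rose by 2.11 ± 0.10. Of the cholesterol synthesis and uptake list, 17 of 28 were higher and 2 lower, with a median log2 fold change of 0.70 (19, 2 and 0.51 without Day 3 replicate 4).

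Lysosomal genes rose as a group. Of 60 lysosomal enzymes and membrane proteins, 48 were higher and 2 lower, with a median of 1.05 (52, 3 and 0.94 without Day 3 replicate 4). The aspartic protease gene Ctsd was at 2946, 2517, 2724 and 3382 CPM at Day 3, against 239.8, 259, 293 and 261 CPM at Day 0, a change of 3.46 ± 0.14 (edgeR adjusted p = 1.90e-06). The cysteine protease genes Ctsl (2.88 ± 0.13) and Ctss (2.10 ± 0.28) and the alpha-galactosidase gene Gla (2.57 ± 0.18) followed. Both members that fell encode degradative enzymes too, the sulfatase gene Arsb (-0.81 ± 0.18) and the sphingomyelinase gene Smpd1 (-0.75 ± 0.13).

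The promoter of Ctsd is shown because it carries, in 2 places, the E-box CACGTG, the core of the element through which TFEB and related factors act on lysosomal genes. Sequences here run from 250 bases before to 50 after the first listed gene start, 5′ to 3′ on the gene's strand (RefSeq, GRCm38.p6), and the search covered both strands. The Ctsd promoter (chr7:142387778-142388077, minus strand) reads as follows, with CACGTG in capitals.
Ctsd: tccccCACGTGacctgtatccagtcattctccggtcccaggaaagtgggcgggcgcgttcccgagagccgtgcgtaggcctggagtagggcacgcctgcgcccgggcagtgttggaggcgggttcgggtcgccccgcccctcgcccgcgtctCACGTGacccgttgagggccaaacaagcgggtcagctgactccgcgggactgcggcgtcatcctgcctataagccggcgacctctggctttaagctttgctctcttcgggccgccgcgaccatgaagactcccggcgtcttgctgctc
Of 47 lysosomal list members with a promoter in the table, 12 (25.5%) held CACGTG, against 7.24% of all 27025 promoters and 9.55% of the 12048 genes tested that had one. Among the 35 members that rose, 9 held it, so most rose without these letters in this window. CACGTG was not particular to this list, since 8 of 25 ribosome biogenesis promoters (32%) held it as well. A match describes the sequence and was not tested for binding.

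Genes of monocytes that enter from the blood were also higher. Of the recruited monocyte list, 14 of 18 were higher and 2 lower, with a median log2 fold change of 2.34 (14, 2 and 2.25 without Day 3 replicate 4). The chemokine receptor gene Ccr2 was at 669, 601, 598 and 630.3 CPM in the Day 3 libraries, against 118, 124, 137 and 103 CPM in the Day 0 libraries. No library overlapped between the days (2.37 ± 0.11, edgeR adjusted p = 2.89e-06). The fibronectin gene Fn1 was at 3313, 3200.4, 3089.9 and 2049 CPM at Day 3, against 151, 156, 118 and 171 CPM at Day 0, and Thbs1, which encodes the matricellular protein thrombospondin 1, at 1789, 1684, 1501 and 1489.7 CPM at Day 3, against 29.0, 33.2, 31.98 and 40.2 CPM at Day 0. These were among the most abundant messages of the Day 3 libraries, with changes of 4.29 ± 0.21 and 5.59 ± 0.16. The chitinase-like gene Chil3 (4.09 ± 0.41), the coagulation factor gene F10 (3.93 ± 0.34) and the haptoglobin gene Hp (3.15 ± 0.47) rose as well. Both members that fell, Ly6c1 (-2.36 ± 0.25) and the angiotensin-converting enzyme gene Ace (-1.49 ± 0.33), are also expressed by endothelium, whose markers fell in the same libraries. The part of endothelial RNA in the falls of Ly6c1 and Ace was not tested.

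Neutrophil genes rose nearly without exception. Of the list, 17 of 18 were higher and 0 lower, with a median log2 fold change of 2.43 (17, 0 and 2.15 without Day 3 replicate 4), and the summed level was 971 to 1635 CPM at Day 3 and 193 to 338 CPM at Day 0. S100a8, a subunit of calprotectin and among the most abundant neutrophil messages, was at 137, 76.4, 115 and 206 CPM in the Day 3 libraries, against 11.7, 16.4, 51.9 and 26.9 CPM in the Day 0 libraries. The Day 3 libraries varied widely among themselves and still lay above those of Day 0 (2.33 ± 0.49, edgeR adjusted p = 0.00382). The collagenase gene Mmp8 (3.24 ± 0.44), the histone deiminase gene Padi4 (3.71 ± 0.23), the decoy interleukin-1 receptor gene Il1r2 (3.95 ± 0.13) and the activating receptor gene Trem1 (4.37 ± 0.28) changed by more. Trem1, Il1r2 and the lectin gene Clec4d (4.13 ± 0.22) are made by monocytes too.

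**Figure D3:**
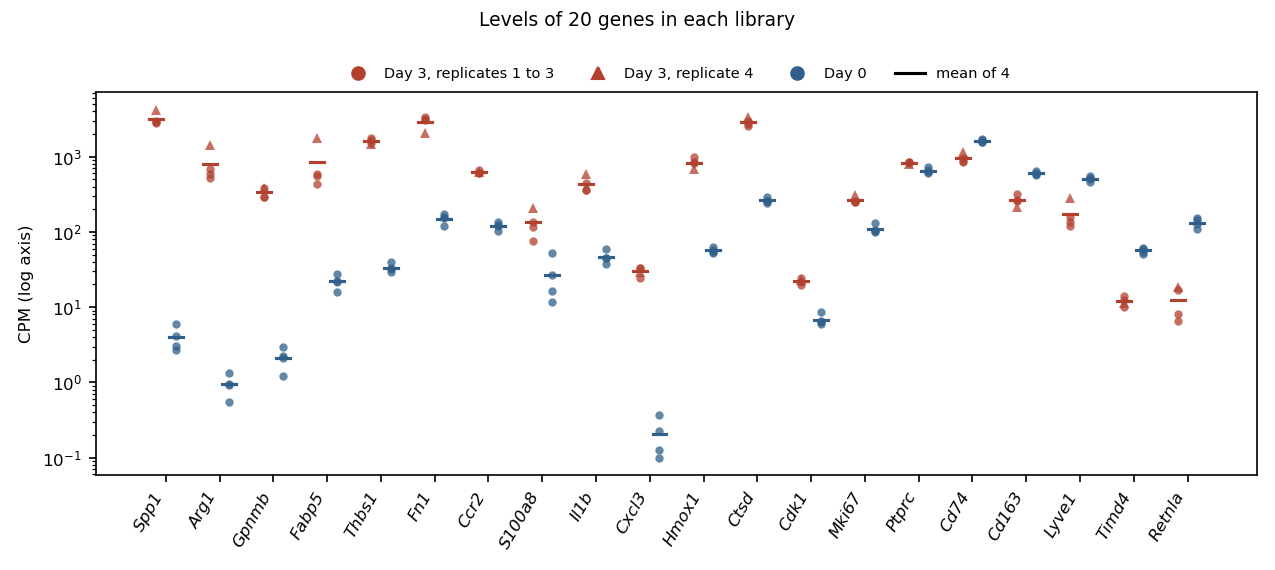
CPM of 20 genes (horizontal axis) in each library on a log axis, Day 3 in red on the left of each pair and Day 0 in blue on the right, with the mean as a bar and Day 3 replicate 4 as a triangle. The Day 3 means of Spp1, Arg1 and Gpnmb lay more than 2 orders of magnitude above those of Day 0, Ptprc differed little, and the 5 genes on the right were lower at Day 3.

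Most genes of resident macrophages went down. Of the list, 1 of 20 were higher and 12 lower, with a median log2 fold change of -0.63 (1, 15 and -0.83 without Day 3 replicate 4). The summed level was 5009 to 6862 CPM at Day 3 and 6656 to 7629 CPM at Day 0, so that the sums overlapped. The 7 members not called were Mrc1, Maf, Cbr2, Vsig4, Fcna, Ccl24 and Gas6. Timd4 was at 10.1, 12.4, 13.9 and 11.3 CPM in the Day 3 libraries, against 54.2, 51.5, 61.5 and 59.5 CPM in the Day 0 libraries. Its change was -2.25 ± 0.12 (edgeR adjusted p = 5.32e-06), with a gap between the groups. Lyve1 was at 136, 156, 119 and 284 CPM at Day 3, against 514, 462, 558 and 509 CPM at Day 0, and Cd163, the scavenger receptor for hemoglobin and haptoglobin complexes, at 267, 317, 258 and 214 CPM at Day 3, against 588, 578, 646 and 614 CPM at Day 0. Their changes were -1.55 ± 0.26 and -1.20 ± 0.13. Folr2 averaged 104 ± 31.5 CPM at Day 3 and 176 ± 26.5 CPM at Day 0 (SD, n = 4 each) and fell by less (-0.76 ± 0.20, edgeR adjusted p = 0.0132). The Folr2 call was lost in a fit of all 24 HC libraries (edgeR adjusted p = 0.146). The member called higher was Pf4 (1.01 ± 0.35, edgeR adjusted p = 0.0402), the platelet factor 4 gene, which macrophages and platelets both express, and its call was lost without Day 3 replicate 3 or any Day 0 replicate (edgeR adjusted p = 0.0503 to 0.106).

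Most but not all resident macrophage genes were far more abundant in HC than in the other isolates. Of the 20 members, 15 stood in HC at 2 times or more their level in every other isolate at Day 0, and 8 of the 12 that fell. The other 5 (Igfbp4, Klf2, Gas6, Fcgrt and Wwp1) were in HC at 0.186 to 1.86 times their highest level elsewhere. At Day 0, Timd4 averaged 36.9 CPM in HC and at most 0.0522 CPM in CM, EC or FB (scaled over 32 libraries). Cd163 averaged 395 CPM in HC and at most 0.631 CPM in the others, and Lyve1 333 CPM in HC and at most 11.8 CPM, in EC. Most genes that fell were not so restricted. Of 3808 genes that fell and were tested in both fits, 2215 (58.2%) were more abundant in CM than in HC at Day 0, against 42.0% of all genes. Only 104 of 1556 falling genes that averaged 10 CPM or more (6.68%) stood in HC at 2 times or more their level in every other isolate at Day 0, against 15.1% of rising genes and 9.81% of all genes at that level. The limit of 2 times was chosen after the values were seen, and cell type and library batch coincide. Among the 104 were Retnla (-3.40 ± 0.35), the phospholipase gene Pla2g2d (-2.48 ± 0.32), the prostaglandin-degrading gene Hpgd (-2.12 ± 0.13), the lectin gene Mgl2 (-1.93 ± 0.11), Cd83 (-1.64 ± 0.17), a surface marker of activated antigen-presenting cells, and Selenop (-0.61 ± 0.12), a selenium carrier whose call was lost in the fit of all 24 HC libraries (edgeR adjusted p = 0.0655).

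Alternative activation genes divided. Of the list, 8 of 22 were higher and 7 lower, with a median log2 fold change of 0.15 (8, 10 and 0.05 without Day 3 replicate 4). Retnla was at 8.03, 6.59, 17.2 and 18.6 CPM in the Day 3 libraries, against 128, 152, 144 and 109 CPM in the Day 0 libraries, so it was nearly lost from the Day 3 libraries, while Arg1 and Chil3 of the same list rose. The receptor gene of interleukins 4 and 13, Il4ra, rose by 2.00 ± 0.11, and the transglutaminase gene Tgm2 by 2.71 ± 0.14. The lymphoid and myeloid factor gene Irf4 (-1.68 ± 0.26) and Mgl2 fell.

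Lymphocyte, mast cell and red cell transcripts were lower in part. Of 31 T and NK cell genes, 1 was higher and 14 lower, while 24 were lower without Day 3 replicate 4 and 7 in the fit of all 24 HC libraries. The member that rose is Il7r (1.66 ± 0.20), the interleukin-7 receptor gene, which also belongs to the lipid-associated macrophage list. Of 20 B cell genes, 12 were lower and 0 higher, with 7, 5 and 7 lower without Day 3 replicate 2, 3 and 4 and 4 in the fit of 24 libraries. The B cell sum was 494 to 682 CPM at Day 3 and 601 to 1599 CPM at Day 0, so that the sums overlapped. Day 0 replicate 1 held the highest sum. Bank1, a B cell adaptor gene (-1.29 ± 0.12), and Ebf1, a B cell fate factor gene that fibroblasts also express (-1.29 ± 0.11), fell. The antigen receptor gene Cd79a was at 15.5, 8.92, 8.76 and 5.88 CPM at Day 3, against 24.8, 11.8, 10.7 and 16.6 CPM at Day 0, with overlapping groups (-0.71 ± 0.35, edgeR adjusted p = 0.125), and was called lower without Day 3 replicate 1 (-1.04, edgeR adjusted p = 0.0338). Ms4a1, which encodes CD20, was called (-1.06 ± 0.34, edgeR adjusted p = 0.0285) but its libraries overlapped, and its call was lost without Day 3 replicate 2, 3 or 4 or Day 0 replicate 1 or 4 (edgeR adjusted p = 0.0614 to 0.0961).

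Of 13 genes of innate lymphoid cells, mast cells, basophils and eosinophils, 9 were lower and 2 higher (10 and 2 without Day 3 replicate 4). The mast cell protease genes Mcpt4 (-1.96 ± 0.23), Cpa3 (-1.52 ± 0.15) and Cma1 (-1.16 ± 0.25) and the interleukin-33 receptor gene Il1rl1 (-1.80 ± 0.11) fell. Both members that rose, the lectin gene Siglecf (4.15 ± 0.29) and the eotaxin receptor gene Ccr3 (2.27 ± 0.20), mark eosinophils, and Siglecf is also known from neutrophils of injured tissue. Of 6 erythroid genes 4 were lower (6 without Day 3 replicate 4, and 2 without any other Day 3 replicate or Day 0 replicate 2 or 3), with the heme synthesis gene Alas2 at -2.15 ± 0.29. Of 10 platelet genes, Ppbp (3.05 ± 0.21) rose and Pf4 is described above, while the membrane glycoprotein gene Itga2b (-0.27 ± 0.20, edgeR adjusted p = 0.303) and the other 7 were not called. Itga2b, Gp5, Gp6, Gp9 and Tubb1 each had a mean of at most 2.34 CPM on either day, and Gp9 was called lower without Day 3 replicate 4 and Tubb1 without Day 3 replicate 2.

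Dendritic cell and antigen presentation genes were mixed. Of the dendritic cell list, 11 of 20 were higher and 3 lower, with a median log2 fold change of 0.84 (11, 4 and 0.81 without Day 3 replicate 4). The growth factor receptor gene Flt3 (1.89 ± 0.22) and the lectin gene Cd209a (1.41 ± 0.16) rose, while the classical dendritic cell factor gene Zbtb46 fell (-1.59 ± 0.21). Of the MHC class II list, 6 of 21 were higher and 6 lower, with a median log2 fold change of -0.16 (6, 8 and -0.12 without Day 3 replicate 4). The share higher was close to the 26.1% over all genes. The invariant chain gene Cd74 was at 845, 866, 965 and 1139 CPM in the Day 3 libraries, against 1559, 1557, 1728 and 1671 CPM in the Day 0 libraries, and the class II chain gene H2-Aa fell in the same manner (-0.77 ± 0.12 and -0.87 ± 0.10, edgeR adjusted p = 8.96e-04 and 1.77e-04). Of the 6 members that rose, Ctss, the legumain gene Lgmn (1.91 ± 0.12) and the thiol reductase gene Ifi30 (2.37 ± 0.21) code for endosomal enzymes. Of the MHC class I list, 15 of 23 were higher and 2 lower, with a median log2 fold change of 0.57 (17, 3 and 0.42 without Day 3 replicate 4), with the peptide loading genes Tapbp (0.80 ± 0.16) and Calr (1.13 ± 0.20) among those higher.

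Genes of cell division rose together. Of 38 DNA replication genes 36 were higher and 0 lower, and of 48 mitosis genes 42 were higher and 0 lower, with medians of 1.30 and 1.28. Without Day 3 replicate 4 the counts were 36 and 0, and 44 and 1. Mki67, which encodes the proliferation antigen Ki-67, was at 260.4, 252, 249 and 305 CPM in the Day 3 libraries, against 105, 98.3, 131 and 103 CPM in the Day 0 libraries. Top2a, the topoisomerase gene of dividing cells, was at 168, 151, 156 and 228 CPM at Day 3, against 56.6, 56.9, 77.3 and 59.0 CPM at Day 0. Both were separated by day (1.28 ± 0.12 and 1.49 ± 0.17), and neither was silent at Day 0. The mitotic kinase gene Cdk1 (1.70 ± 0.14), its cyclin gene Ccnb1 (1.94 ± 0.23), the spindle checkpoint gene Bub1 (1.91 ± 0.16) and the ribonucleotide reductase gene Rrm2 (2.05 ± 0.14) rose as well, with a largest edgeR adjusted p of 1.66e-04.

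Replication-dependent histone genes, whose messages lack a poly(A) tail and are seen here because total RNA was sequenced, depended strongly on Day 3 replicate 4. Of 50, 16 were higher with it and 43 without it, with medians of 1.08 and 1.24. Their sum was 501 CPM in it, the lowest of Day 3, and 615 to 893 CPM in the other Day 3 libraries. Hist1h1b, a linker histone gene, was at 36.0, 22.6, 28.1 and 42.3 CPM at Day 3, against 8.32, 11.7, 16.8 and 12.2 CPM at Day 0. Members of this family are near copies of one another, so reads may be divided among them by the counting. Among regulators that act before replication, the kinase gene Cdk4 (1.16 ± 0.13) and the inhibitor gene Cdkn1a (1.20 ± 0.26) rose, and the cyclin gene Ccnd2 (-0.71 ± 0.18) fell.

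Promoters of 2 mitosis genes are shown because the list shares sequence elements that its choice did not use. The cell cycle genes homology region (CHR, TTTGAA) and the CCAAT box are the elements through which the DREAM and NF-Y complexes are known to act on late cell cycle genes. Capitals mark TTTGAA and CCAAT on either strand, so the reverse complements TTCAAA and ATTGG are in capitals as well. No marked stretch overlaps another. The Cdk1 window is chr10:69352863-69353162 (minus strand) and that of Top2a is chr11:99024140-99024439 (minus strand).
Cdk1: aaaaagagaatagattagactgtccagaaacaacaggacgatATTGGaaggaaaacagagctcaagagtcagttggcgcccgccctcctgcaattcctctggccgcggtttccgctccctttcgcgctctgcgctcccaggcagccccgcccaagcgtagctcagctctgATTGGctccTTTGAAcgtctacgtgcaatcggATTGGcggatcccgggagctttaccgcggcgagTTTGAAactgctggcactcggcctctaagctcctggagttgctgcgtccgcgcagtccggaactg
Top2a: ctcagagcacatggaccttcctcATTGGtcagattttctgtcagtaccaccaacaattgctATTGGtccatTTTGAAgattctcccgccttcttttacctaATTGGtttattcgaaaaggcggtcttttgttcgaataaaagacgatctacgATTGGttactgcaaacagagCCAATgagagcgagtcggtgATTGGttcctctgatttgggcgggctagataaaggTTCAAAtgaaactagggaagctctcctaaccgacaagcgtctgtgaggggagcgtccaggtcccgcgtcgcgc
TTTGAA was in 26 of 38 mitosis promoters (68.4%) and in 6 of 31 DNA replication promoters (19.4%), against 18.1% of all promoters and 13.4% of genes tested. CCAAT was in 28 of the 38 mitosis promoters (73.7%), against 37.9% of all. Other lists held CCAAT more often, among them cholesterol synthesis and uptake (85.7%) and the unfolded protein response (78.8%). The mitosis promoters that rose held TTTGAA in 23 of 33 cases.

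Interferon response genes were higher for the most part. Of the list, 45 of 60 were higher and 4 lower, with a median log2 fold change of 0.73 (44, 6 and 0.58 without Day 3 replicate 4). Cxcl10, an interferon-induced chemokine, was at 62.3, 94.2, 86.2 and 109 CPM in the Day 3 libraries, against 15.7, 17.4, 40.7 and 43.1 CPM in the Day 0 libraries. The days did not overlap (1.59 ± 0.36, edgeR adjusted p = 0.00566). The synthetase genes Oas3 (2.23 ± 0.29) and Oasl1 (2.22 ± 0.35), the membrane protein gene Ifitm1 (3.52 ± 0.33) and the Schlafen gene Slfn4 (4.12 ± 0.33), which neutrophils and monocytes also express at rest, rose more. The GTPase genes Gbp4 (-1.71 ± 0.14) and Iigp1 (-1.45 ± 0.16), mainly induced by interferon-gamma, fell, as did the interferon-gamma-induced chemokine gene Cxcl9 (-1.40 ± 0.16). The Cxcl10 promoter is shown with the interferon-stimulated response element in capitals, here GAAANNGAAA on either strand (chr5:92348840-92349139, minus strand).
Cxcl10: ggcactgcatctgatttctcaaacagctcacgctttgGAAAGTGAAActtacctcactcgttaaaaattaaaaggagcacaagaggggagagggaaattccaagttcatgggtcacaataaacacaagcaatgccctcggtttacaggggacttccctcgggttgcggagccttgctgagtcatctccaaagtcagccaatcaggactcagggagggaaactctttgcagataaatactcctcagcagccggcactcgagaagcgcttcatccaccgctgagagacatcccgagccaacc
This element was in 29 of 47 interferon list promoters (61.7%), against 3.49% of all promoters, and in 23 of the 37 that rose.

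Inflammatory ligands and their brakes rose side by side. Of the interleukin-1, interleukin-6 and TNF list, 26 of 39 were higher and 5 lower, with a median log2 fold change of 0.74 (28, 7 and 0.73 without Day 3 replicate 4). Il1b was at 359, 357, 452 and 579 CPM in the Day 3 libraries, against 44.6, 37.8, 58.6 and 44.9 CPM in the Day 0 libraries. Its groups were far apart (3.23 ± 0.21, edgeR adjusted p = 8.40e-06). The related ligand gene Il1a (4.32 ± 0.30), the receptor antagonist gene Il1rn (3.93 ± 0.14) and the suppressive cytokine gene Il10 (4.69 ± 0.43) changed by more than Il1b, and the decoy receptor gene Il1r2 is described above. The signalling receptor genes Il1r1 (-0.61 ± 0.16), Osmr (-1.54 ± 0.22) and Lifr (-1.22 ± 0.19), which stromal cells express as well, fell. At Day 0, Lifr averaged 267 CPM in HC, against 78.6 CPM in CM, 96.5 CPM in EC and 89.6 CPM in FB (scaled over 32 libraries). It was thus one of the HC-enriched genes counted above.

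Among sensors, the Toll-like receptor and inflammasome list had 25 of 37 higher and 1 lower (30 and 2 without Day 3 replicate 4, with 2 lower also without Day 3 replicate 1). The lectin gene Clec4e, a sensor of dying cells and mycobacterial lipid, was at 148, 209, 208 and 178 CPM at Day 3, against 4.31, 3.56, 7.52 and 6.75 CPM at Day 0, with a wide gap between the days (5.07 ± 0.27). The pyrin gene Mefv (4.73 ± 0.15) and the RNA sensor gene Tlr13 (2.08 ± 0.27) rose, and Nlrc4 fell (-0.76 ± 0.12).

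Chemokine genes and their receptors rose more often than they fell. Of the Ccl and Cxcl list, 19 of 27 were higher and 5 lower, with a median log2 fold change of 1.47 (18, 6 and 1.09 without Day 3 replicate 4), and of the receptors, 11 of 23 were higher and 4 lower, with a median log2 fold change of 0.69 (12, 4 and 0.52 without Day 3 replicate 4). Cxcl3, a neutrophil attractant, was at 32.9, 32.8, 24.1 and 29.7 CPM at Day 3, against 0.100, 0.126, 0.228 and 0.371 CPM at Day 0, nearly absent at Day 0. The monocyte attractant gene Ccl7 (3.05 ± 0.24), Ccl8 (3.40 ± 0.41) and Cxcl1 (2.91 ± 0.39) rose, while Cxcl12, which stromal and endothelial cells make to retain leukocytes, fell (-2.44 ± 0.18). Of the receptors, Ccr1 (2.29 ± 0.19) and the formyl peptide receptor gene Fpr2 (2.50 ± 0.35) rose, and the scavenging receptor gene Ackr3 fell (-1.13 ± 0.15).

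Receptors for dead cells changed in both directions. Of the apoptotic cell clearance list, 18 of 36 were higher and 8 lower, with a median log2 fold change of 0.59 (22, 9 and 0.53 without Day 3 replicate 4). The share of this list that was lower was close to the 21.8% over all genes. Receptors that rose were Cd300lf (4.08 ± 0.14), Havcr2 (2.08 ± 0.10) and the scavenger receptor gene Marco (3.97 ± 0.38). Among the members that fell were Timd4, the receptor kinase gene Axl (-0.93 ± 0.14) and the bridging ligand gene Mfge8 (-0.80 ± 0.15). Of the complement list, 7 of 26 were higher and 10 lower, with a median log2 fold change of 0.03 (9, 11 and -0.21 without Day 3 replicate 4). The share higher was close to the 26.1% over all genes. The chains of complement receptor 3, Itgam (1.97 ± 0.09) and Itgb2 (1.55 ± 0.09), rose, and the regulator gene Cd55 (-1.54 ± 0.14) fell.

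Genes for handling heme, iron and oxidants moved mostly upward. Of the heme and iron list, 13 of 24 were higher and 3 lower, with a median log2 fold change of 0.64 (14, 4 and 0.63 without Day 3 replicate 4). Hmox1, the heme oxygenase that releases iron from heme, was at 859, 979, 812 and 683 CPM in the Day 3 libraries, against 57.4, 52.3, 62.8 and 54.8 CPM in the Day 0 libraries. The groups were separated by a wide gap (3.87 ± 0.14, edgeR adjusted p = 1.43e-06). The ferritin genes Fth1 (1.95 ± 0.27) and Ftl1 (1.79 ± 0.14), which store iron, and the lysosomal heme carrier gene Slc48a1 (1.85 ± 0.09) rose, and the transferrin gene Trf fell (-0.73 ± 0.19). Of the antioxidant and NRF2 target list, 19 of 32 were higher and 5 lower, with a median log2 fold change of 0.75 (22, 5 and 0.66 without Day 3 replicate 4), with the cystine carrier gene Slc7a11 at 3.04 ± 0.23 and the thioredoxin reductase gene Txnrd1 at 2.01 ± 0.10. Of 15 NADPH oxidase and nitric oxide genes 13 rose and 2 fell (12 and 2 without Day 3 replicate 4), the falling ones being the nitric oxide synthase genes Nos2 (-2.25 ± 0.28) and Nos3 (-2.61 ± 0.22). Acod1, which makes the metabolite itaconate, was at 40.3, 63.2, 70.6 and 112 CPM at Day 3, against 1.05, 1.38, 1.54 and 1.74 CPM at Day 0.

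Glycolysis and respiration moved in opposite directions. Of the glycolysis and lactate list, 23 of 32 were higher and 5 lower, with a median log2 fold change of 1.15 (24, 5 and 1.18 without Day 3 replicate 4). The glucose carrier gene Slc2a1 was at 69.3, 73.6, 78.0 and 74.5 CPM in the Day 3 libraries, against 11.5, 12.7, 12.4 and 14.8 CPM in the Day 0 libraries. It did not overlap (2.52 ± 0.10, edgeR adjusted p = 1.97e-06), nor did the mutase gene Pgam1 (2.82 ± 0.15) or the lactate exporter gene Slc16a3 (3.14 ± 0.15). Among the 5 members that fell were Pfkm (-2.63 ± 0.15), Ldhb (-2.80 ± 0.24) and Pdk4 (-3.10 ± 0.23), which heart muscle expresses strongly. Of 25 hypoxia genes 13 rose and 4 fell (14 and 4 without Day 3 replicate 4). The factor gene Hif1a rose by 1.92 ± 0.09 and the lipid droplet gene Hilpda by 3.44 ± 0.27, while the endothelial factor gene Epas1 fell (-1.88 ± 0.15).

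All 13 mitochondrial genome transcripts fell, with and without Day 3 replicate 4, with a median of -1.70. The oxidase gene mt-Co1 was at 8463, 9566, 8634 and 3907 CPM at Day 3, against 23749, 33546, 28216 and 25740.3 CPM at Day 0. Of the nuclear-encoded respiratory chain list, 2 of 52 were higher and 22 lower, with a median log2 fold change of -0.55 (2, 46 and -0.81 without Day 3 replicate 4), and of the fatty acid oxidation list, 4 of 33 were higher and 21 lower, with a median log2 fold change of -0.95 (5, 25 and -1.13 without Day 3 replicate 4). Cpt1b, the muscle form of the carnitine transferase, changed by -2.83 ± 0.17, and Acadm, which is expressed more widely, by -1.64 ± 0.23. At Day 0, mt-Co1 averaged 18088 CPM in HC and 152163 CPM in CM when scaled over 32 libraries, unlike the library values above. The CM transcript sum moved with these lists, as given above. Its part in these falls was not tested. The 2 respiratory chain genes that rose were Cox8a (1.27 ± 0.34) and Cox6a1 (1.28 ± 0.40), whose call was lost without Day 0 replicate 1, 2 or 4 (edgeR adjusted p = 0.0594 to 0.0717).

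Matrix genes were higher at Day 3 for the most part. Of the matrix list, 16 of 24 were higher and 5 lower, with a median log2 fold change of 1.43 (16, 6 and 1.54 without Day 3 replicate 4). Besides Fn1, Spp1 and Thbs1, the tenascin gene Tnc was at 30.0, 26.0, 25.2 and 10.5 CPM at Day 3, against 0.551, 0.545, 0.684 and 0.741 CPM at Day 0. The fibrillar collagen genes Col1a1 (2.00 ± 0.13) and Col3a1 (1.34 ± 0.13) and the scar protein gene Postn (1.43 ± 0.28) rose, but the resting fibroblast genes Dcn (-1.64 ± 0.21) and Pdgfra (-1.40 ± 0.21) fell. Fibroblast markers as a list had 5 of 14 higher and 8 lower (5 and 9 without Day 3 replicate 4), with sums of 802 to 951 CPM at Day 3 and 776 to 1059.5 CPM at Day 0. Col1a1 averaged 93.7 CPM at Day 3 and 23.8 CPM at Day 0 in HC. These were far below the 9728 CPM at Day 3 and 929 CPM at Day 0 of FB (FB scaled over 32 libraries). The part of carried-over fibroblast RNA in the collagen rise was not tested.

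Of the proteases and inhibitors, 17 of 25 were higher and 5 lower (17 and 6 without Day 3 replicate 4). Adam8, a membrane protease gene of myeloid cells, was at 345, 311, 334 and 287 CPM at Day 3, against 8.87, 10.7, 9.58 and 9.01 CPM at Day 0, a change with a small error (5.06 ± 0.12, edgeR adjusted p = 2.58e-07). The metalloprotease gene Mmp19 (3.79 ± 0.15), the inhibitor gene Timp1 (5.12 ± 0.38) and the secretory protease inhibitor gene Slpi (3.81 ± 0.64) rose. The collagenase gene Mmp13 (-1.66 ± 0.15), one of the HC-enriched genes counted above, and the stromal gelatinase gene Mmp2 (-1.42 ± 0.22) fell.

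Transcription factor genes that define lymphoid and myeloid fates were higher more often than lower. Of the list, 22 of 40 were higher and 8 lower, with a median log2 fold change of 0.52 (23, 11 and 0.42 without Day 3 replicate 4). The share lower was close to the 21.8% over all genes. Cebpb, a factor of inflammatory macrophages, was at 127, 154, 187 and 323 CPM at Day 3, against 46.7, 47.0, 44.8 and 54.6 CPM at Day 0. The factor gene Nfil3 (2.95 ± 0.17) and Bhlhe40 (1.99 ± 0.14), which macrophages need to proliferate in some tissues, rose, and Mef2c (-1.12 ± 0.08) and the B cell factor gene Pax5 (-1.01 ± 0.33, edgeR adjusted p = 0.0332) fell. The Pax5 call was lost without Day 3 replicate 2, 3 or 4 or Day 0 replicate 1 or 4 (edgeR adjusted p = 0.0574 to 0.0997), and the number of members lower was 5 without Day 3 replicate 1 or 3 or Day 0 replicate 2 or 4. Of immediate early and dissociation genes, 16 of 36 were higher and 4 lower, with a median log2 fold change of 0.49 (20, 5 and 0.32 without Day 3 replicate 4). The heat shock genes Hspa1a (-2.48 ± 0.20) and Hspa1b (-2.90 ± 0.17), which digestion of tissue is known to induce, were lower at Day 3, while Nr4a2 (2.58 ± 0.26) and Gadd45b (1.99 ± 0.34) were higher.

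Protein synthesis genes shifted upward, and here again Day 3 replicate 4 stood highest. Of 47 ribosomal protein genes 24 were higher and 0 lower, with a median of 0.77 that became 0.38 without that library, when 25 were higher. The count moved with most libraries, to 39 without Day 3 replicate 2, 14 without Day 3 replicate 3, and 10, 9, 13 and 14 without Day 0 replicates 1 to 4. Their sum was 31291 CPM in it and 12173 to 17113 CPM in the other Day 3 libraries. Of 30 ribosome biogenesis genes 22 rose and 0 fell (23 and 0 without Day 3 replicate 4), among them the fibrillarin gene Fbl (0.98 ± 0.11) and the nucleophosmin gene Npm1 (0.99 ± 0.25). Of the unfolded protein response and ATF4 list, 28 of 37 were higher and 1 lower, with a median log2 fold change of 0.94 (31, 1 and 0.80 without Day 3 replicate 4), with Sdf2l1 (1.77 ± 0.22) and the stress sensor gene Sesn2 (1.94 ± 0.23) among those higher.

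Growth factor genes had no common direction. Of the list, 12 of 32 were higher and 10 lower, with a median log2 fold change of 0.04 (12, 15 and -0.17 without Day 3 replicate 4). Gdf15, a stress-induced cytokine gene, was at 18.2, 44.8, 36.4 and 55.4 CPM at Day 3, against 3.51, 3.19, 5.07 and 5.82 CPM at Day 0, and the hepatocyte growth factor gene Hgf rose by 1.16 ± 0.19. Igf2 (-1.95 ± 0.19) and Pdgfb (-1.10 ± 0.12) fell. Of the long noncoding RNAs, 7 of 27 were higher and 2 lower, with a median log2 fold change of 0.16 (10, 6 and -0.03 without Day 3 replicate 4). The share higher was close to the 26.1% over all genes. The lincRNA gene Mirt1, named for its rise after infarction, rose by 1.25 ± 0.20.

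Day 3 was next set against Day 1, in a fit of all 24 HC libraries, which shares the Day 3 libraries with the comparison above. The Day 1 files list transcripts and the Day 3 files genes, so day and kind of file coincide and cannot be told apart here. Of 18858 genes 1098 (5.82%) were higher at Day 3 than at Day 1 and 1165 (6.18%) lower. Division genes were higher at Day 3 than at Day 1: of the mitosis list 44 of 48 were higher and 0 lower, and of the DNA replication list 30 of 38 were higher and 0 lower. Mki67 averaged 119, 53.7, 278, 180.1, 156 and 101 CPM from Day 0 to Day 28, with Day 3 the highest and Day 1 the lowest, and its change from Day 1 was 2.37 ± 0.31 (edgeR adjusted p = 4.25e-05). Lysosomal genes were also higher (29 of 60 higher and 1 lower), as were interferon genes (34 of 60 higher and 2 lower). Without Day 3 replicate 4 the interferon count was 21 higher and 2 lower, and those higher were 43 for mitosis, 28 for DNA replication and 27 for lysosomal genes.

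Neutrophil genes were lower at Day 3 than at Day 1. Of that list, 0 of 21 were higher and 14 lower, with S100a8 at -2.17 ± 0.53 (edgeR adjusted p = 0.00795), and of the interleukin-1, interleukin-6 and TNF list 0 of 39 were higher and 11 lower. Il1b averaged 50.4, 1019.9, 456, 171, 133 and 116 CPM over the 6 days, highest at Day 1 (-1.16 ± 0.31, edgeR adjusted p = 0.0147), a call lost without Day 3 replicate 1 or Day 1 replicate 1 (edgeR adjusted p = 0.0514 to 0.0671). Glycolysis genes were lower than at Day 1 as well (1 of 32 higher and 14 lower). Without Day 3 replicate 4, 15 neutrophil, 11 interleukin list and 12 glycolysis genes were lower, and 0, 1 and 1 higher. Where 0 members were called in a direction here, 0 of the neutrophil, mitosis and DNA replication lists and 3 of the interleukin list had an unadjusted p under 0.05 in it.

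The macrophage genes that led the comparison with Day 0 differed in their courses. Gpnmb was higher at Day 3 than at Day 1 (2.57 ± 0.53, edgeR adjusted p = 0.00228), with means of 2.31, 59.3, 352, 208, 39.1 and 14.4 CPM. Fabp5 (2.34 ± 0.47) and Ctsd (1.14 ± 0.21) were higher too. Spp1 was already abundant at Day 1 and its difference was 0.53 ± 0.28 (edgeR adjusted p = 0.258), and that of Arg1 was -1.01 ± 0.47 (edgeR adjusted p = 0.187), so neither passed. Ccr2 also differed little (-0.16 ± 0.14, edgeR adjusted p = 0.539). Timd4 was lowest at Day 3, at 12.4 CPM, and at 66.9 and 70.2 CPM on Day 14 and Day 28 lay close to its Day 0 mean of 61.5 CPM. Its change from Day 1 was -0.60. That call was lost without Day 3 replicate 1 or 4 or Day 1 replicate 1, 2 or 3 (edgeR adjusted p = 0.0594 to 0.0972). Col1a1 differed from Day 1 by 2.09 ± 0.29 and peaked at Day 7 with 438 CPM.

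**Figure D4:**
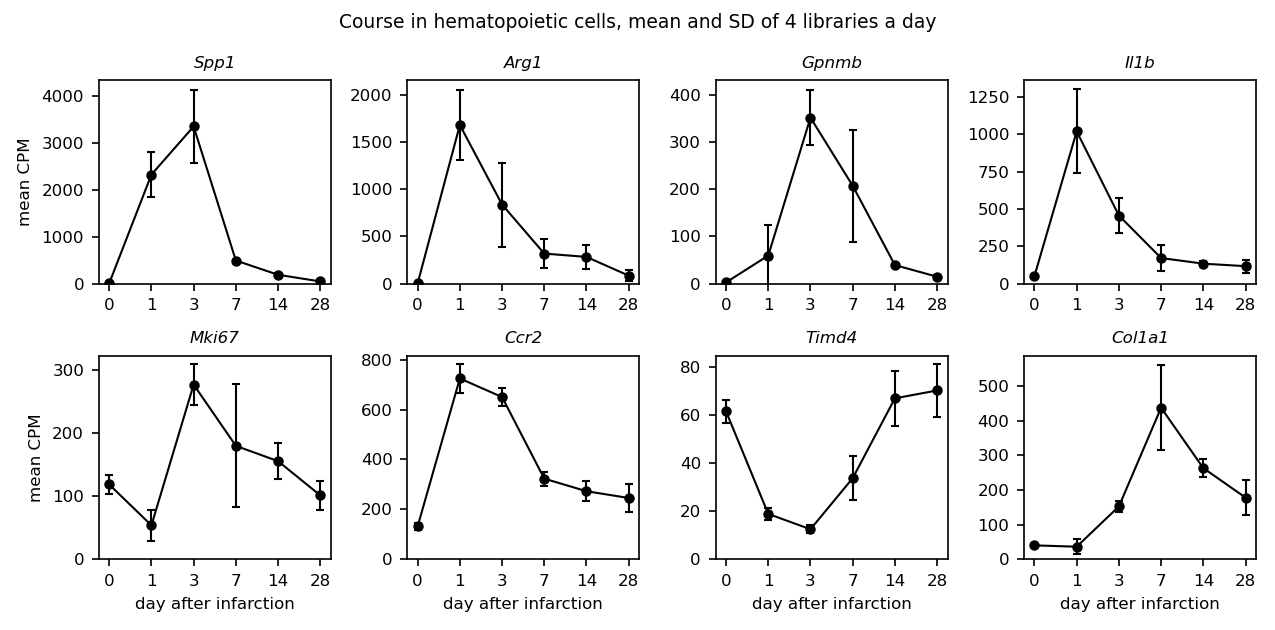
Mean CPM (vertical axis, bars are the SD of 4 libraries) of 8 genes in HC on Days 0, 1, 3, 7, 14 and 28 (horizontal axis, days evenly spaced, bars ending at 0). Il1b and Arg1 peak at Day 1, Spp1, Gpnmb and Mki67 at Day 3 and Col1a1 at Day 7, while Timd4 is lowest at Day 3.

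The change in HC was then compared with the mean change in CM, EC and FB between the same days, over 32 libraries. The study took the cell types of a time point from the same mice, so the libraries of a day are not independent of one another, and the labels do not say which pools share mice. It was higher in HC for 1739 of 19934 genes (8.72%) and lower for 3360 (16.9%). Scaled to the library total without rRNA, the counts were 687 and 4126. FB Day 3 replicates 2 and 3, with 2664340 and 3508820 reads (to 6 digits) of which 35.6% and 35.2% were rRNA, were kept. Without them 2104 genes were higher and 3604 lower. Cell type and library batch coincide, so that their effects cannot be told apart. Top2a and Mki67 rose less in HC than in the others. Top2a changed by 1.47 in HC, against 3.96 in CM, 2.95 in EC and 4.48 in FB, a difference of -2.32 ± 0.30 (edgeR adjusted p = 5.84e-07). For Mki67 the difference was -2.01 ± 0.42 (edgeR adjusted p = 4.29e-04), but 0.14 ± 0.37 on log2(TPM + 1) with limma. Lyve1 (-2.54 ± 0.30), Cd74 (-1.13 ± 0.35) and the lysozyme gene Lyz2 (-1.78 ± 0.39) were also lower in HC by this measure. Lyz2 changed by 0.73 in HC, against 5.08 in CM, 0.53 in EC and 1.92 in FB. Cd74 changed by -0.80 in HC, against 1.49 in CM, -0.54 in EC and 0.05 in FB. Lyz2 had at most 49 reads in a CM Day 0 library, and Cd74 at most 87 reads in any library outside HC. In CM Day 0 libraries Top2a had at most 23.7 estimated reads, Lyve1 21, Mki67 19 and Hmox1 12, so their changes in CM rest on few reads. Fn1 rose by 4.26 in HC, more than in CM (3.33), EC (2.40) or FB (2.77), a difference from their mean of 1.43 ± 0.28. Hmox1 changed by 3.85 in HC, against 5.28 in CM, 2.65 in EC and -0.67 in FB. Its difference from the mean of the others was 1.43 ± 0.25, although its value in CM was above that in HC. Spp1, Arg1, Folr2, Il1b, Cxcl10, Cd79a and S100a8 had at most 3 reads in every library of some other group, so their differences are not given. Spp1 averaged 2053 CPM at Day 3 and 2.57 CPM at Day 0 in HC, 124 and 0.0727 CPM in CM, 16.9 and 0.359 CPM in EC, and 65.5 and 0.631 CPM in FB. It was thus detected in each isolate at Day 3, and highest in HC on both days.

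**Figure D5:**
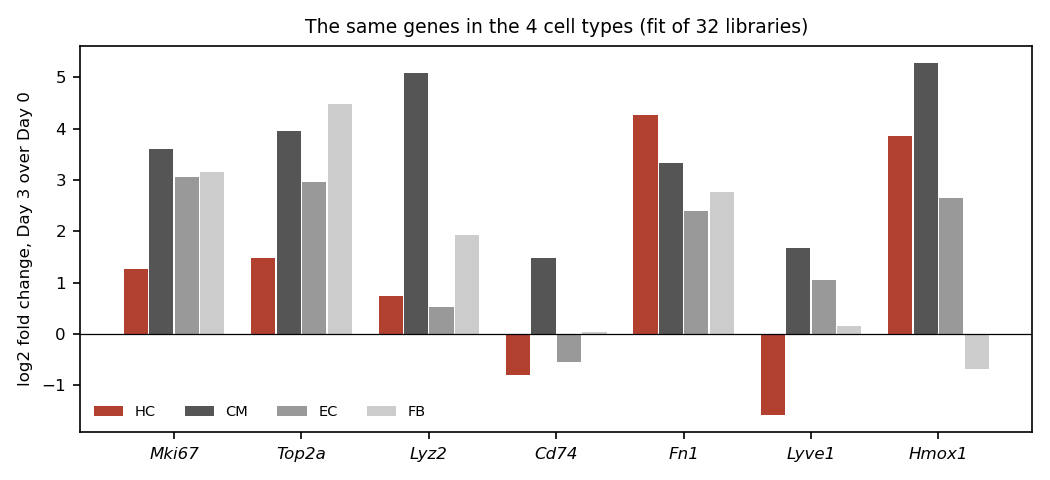
Log2 fold change of Day 3 over Day 0 (vertical axis) for 7 genes (horizontal axis) in HC (red), CM, EC and FB (greys), from the fit of 32 libraries. The bars of Mki67 and Top2a are shorter in HC than in the other cell types, and those of Lyve1 and Cd74 point down in HC.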

How the data were processed

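Total RNA from HC, CM, EC and FB isolates was sequenced after rRNA depletion. Reads were trimmed with Trim Galore, aligned to mm10 with STAR 2.28 in its two-pass mode and quantified with Salmon. The authors deposited estimated counts, TPM and the length of each gene for every library, with 363 of 51398 entries of a gene table matching no gene (at most 0.121% of reads). The Day 0 and Day 3 HC files list genes, and files that list transcripts (HC Day 1 and Day 7, CM and EC) were summed per gene, leaving 160 genes of unlike length in the 2 kinds of file out of the fits that join them. FB Day 3 and HC Day 28 libraries that the study set aside as outliers were kept.

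Here the deposited estimated counts were rounded and entered into edgeR 4.0.16 under R 4.3.3 (quasi-likelihood test, TMM scaling, filterByExpr, Benjamini-Hochberg over all genes tested, called under an adjusted p of 0.05). CPM are counts scaled by TMM library size and are not divided by gene length. The deposited TPM served only for limma 3.58.1 on log2(TPM + 1), an alternative, and DESeq2 1.42.0 was another. The SE was taken as the change over the root of its F statistic. Other alternatives were RLE scaling, the library total without rRNA, no filter or at least 10 reads in every library of a group, a replicate block, leaving out each library, and other sets of libraries.

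The 48 gene lists and their members, and the genes named, were chosen with earlier results of these data known. The rule named the 12 highest and 12 lowest called genes that averaged 10 CPM or more with no overlap between the days, and from each list up to 5 members each way (all members of lists of up to 12), with any member whose role the text needs. Day 3 libraries held 30011706 to 40395291 reads and Day 0 libraries 18518234 to 26161406. The tests were tested on simulated data. Promoters came from a RefSeq table of GRCm38.p6 that matched 12048 of 17548 genes tested, the first start listed being used.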

Additional observations from a re-analysis of the deposited data

Results flagged for a closer look

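In groups of 4 libraries, a library was taken as far from the others where its gap to the nearest one exceeded 0.829 of the whole range, which chance gives in about 1 of 20 groups. At Day 3 this held for 32 of 195 genes named above, and in 27 of them replicate 4 was the library apart. At Day 0 it held for 9 of 195. Summed misc_RNA genes gave a ratio of 0.96 at Day 3.

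Among summed gene lists at Day 3, the ratio of gap to range was 0.84 for the alternative activation list and the NADPH oxidase and nitric oxide list, 0.85 for the erythroid list and the Ccl and Cxcl chemokines list, 0.86 for the osteopontin and lipid-associated macrophage list and the ribosome biogenesis and nucleolus list, 0.89 for the hypoxia-inducible factors and targets list. The ratio was also 0.92 for the platelet list and the heme and iron handling list, 0.94 for the B cell list, 0.95 for the antioxidant and NRF2 targets list, 0.97 for the matrix proteases, plasminogen system and inhibitors list.

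Among single genes at Day 3, the ratio was 0.83 for Mcpt4 and Ms4a1, 0.84 for Acadm, Cd36, Lyz2, Myoz2 and Pdk4, 0.85 for Col1a1 and Folr2, 0.86 for Mefv. The ratio was also 0.87 for Myl2, Sesn2 and Spp1, 0.88 for Cma1, Fth1, Ifitm1, Pf4 and Pfkm, 0.89 for Axl, Ctss, Fabp5 and Timp1, 0.90 for Cd209a, Cxcl9, Irf4 and Saa3. The ratio was also 0.92 for Itgax, Lgmn and Lpl, 0.93 for Alas2, 0.94 for Npm1, 0.96 for Ccl8. Among single genes at Day 0, the ratio was 0.84 for Axl and Rgs5, 0.85 for Nlrc4, 0.86 for Mef2c, 0.88 for Marco. The ratio was also 0.89 for Ccnb1 and Top2a, 0.93 for Cd300lf and Mmp13. The summed cell cycle, mitosis list had a ratio of 0.87 at Day 0.

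The change at Day 3 differed by test between HC and the mean of CM, EC and FB for Mki67 (-2.01), Top2a (-2.32), Lyz2 (-1.78), Cd74 (-1.13), Fn1 (1.43), Lyve1 (-2.54) and Hmox1 (1.43), each the log2 change in HC minus that in the other cell types, from the fit of 32 libraries given above.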

How the results depend on the processing

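In the comparison of Day 3 with Day 0, RLE scaling, the library total without rRNA, DESeq2, both other filters, the fit of 24 HC libraries, and the protein-coding genes alone (an alternative chosen after seeing the data) gave 3644 to 4578 genes higher and 3858 to 4364 lower. Limma on log2(TPM + 1), which tested 11890 genes, gave 699 and 802, and the cause was not tested. Leaving out 1 library at a time gave 3759 to 5519 higher and 3320 to 5094 lower, the highest counts without Day 3 replicate 4. Against Day 1, limma gave 239 and 24, no filter on low counts 721 and 1014, and leaving out 1 library 677 to 1333 higher and 785 to 1323 lower. For the change in HC against the other cell types, the library total without rRNA gave 687 higher and 4126 lower, limma 1730 and 641, and leaving out 1 library 1311 to 2254 and 3011 to 3436. The causes of these shifts were not tested.

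Of 187 named genes called against Day 0, 49 lost the call under limma on log2(TPM + 1) and 8 were not tested by it. It also moved 69 of 96 list counts by over 1.5 times. No named gene called against Day 0 changed direction under any alternative that tested it. Limma on log2(TPM + 1) reversed 2 values, those of Ccr2 against Day 1 (0.18) and of Mki67 in HC against the other cell types (0.14).

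Deviations of same-numbered libraries from their group means correlated at 0.272, 0.208, -0.222 and 0.282, and those of unlike-numbered ones at -0.349 to 0.314. With 4 libraries a day and Day 3 replicate 4 far from the others, these values cannot decide whether the numbers pair libraries. Between HC and the other cell types of a day, correlations of same-numbered libraries ran from -0.52 to 0.345, and there the block was the number within a day. With the replicate block 4248 genes were higher and 3624 lower at Day 3 than at Day 0, 1213 and 1238 against Day 1, and 1680 and 3268 in the comparison of cell types. Among named genes the replicate block changed the call of Cd79a, which was then lower at Day 3.

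Limits lie in the pools, of which there were 4 a day, in the single library batch of each cell type, and in levels under about 1 CPM, where few reads decide a value.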
